A study of Mus musculus with 18 samples.

Results

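Lungs of mice lacking β-arrestin 1 were compared with wild-type lungs after chronic hypoxia, using the 3 libraries of β-arrestin 1 -/- mice kept in hypoxia and the 3 libraries of wild-type mice kept in hypoxia, 6 of the 18 libraries of the series. Members were chosen by title and treatment label alone, and all genes measured were considered. The mice were male C57BL/6 animals, 8 to 12 weeks old at the start and 12 to 16 weeks old at sampling, kept for 4 weeks at a pressure equal to an altitude of 18000 feet, with an alveolar oxygen pressure of about 70 mmHg. The same genotypes kept for 4 weeks at normal altitude, with an alveolar oxygen pressure of about 150 mmHg, gave 6 further libraries that served as a separate comparison. Hypoxic mice labelled β-arrestin 2 -/- gave the last 3 libraries used for comparison. The line is named by genotype alone, and the sources used here give neither its allele nor its targeted exons. About 30 mg of frozen lung gave each RNA, and polyadenylated RNA was sequenced. The labels do not say whether each library was 1 mouse or a pool, so the p-values reflect only how libraries vary, which may be technical. The spread behind them was estimated from all 18 libraries of the series, including 3 normoxic ones labelled β-arrestin 2 -/-.

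β-arrestin 1 (Arrb1) and β-arrestin 2 (Arrb2) are scaffold proteins that bind G protein-coupled receptors once the receptors have been phosphorylated by receptor kinases. They uncouple the receptor from its G protein, bring it to clathrin-coated pits and hold kinases such as Src and ERK close to it. In the lung they act downstream of receptors for catecholamines, endothelin, angiotensin and prostanoids, which set the tone and growth of pulmonary vessels, and chronic hypoxia is a standard way to raise pulmonary artery pressure in mice.

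The 6 libraries held between 16806806 and 25482323 fragments. Libraries carried the markers of lung: the authors' FPKM values averaged 1568 in wild type and 1680 in β-arrestin 1 -/- for the surfactant gene Sftpb, 2464 and 2987 for the alveolar type 1 gene Ager, and 365 and 370 for the endothelial cadherin Cdh5. Of the knockout libraries, replicate 2 stood apart. It had the lowest total, and its log2 expression correlated with that of the other 5 libraries at 0.95 to 0.964, against up to 0.988 between other pairs. Muscle, club cell and fat genes also varied between libraries. A score made from 3 lists of such genes stood at 0.36, 0.43 and 0.71 in wild type and at -1.20, 0.75 and -0.85 in the knockout. Calls lost without replicate 2, or with the score as a covariate, are named beside the genes below. In bulk tissue, fewer cells of a type and less RNA per cell cannot be told apart.

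Of 15388 genes tested with edgeR's quasi-likelihood test, 31 genes (0.201%) differed between β-arrestin 1 -/- and wild type in hypoxia at an adjusted p below 0.05. Of these, 13 were higher (0.0845%) and 18 were lower (0.117%) in the knockout. For all 31 the 3 knockout values lay outside the range of the 3 wild-type values. Over all genes tested, 4.82% separated the groups upward and 4.97% downward. The 31 were called from these same values, so their separation is no further support for the calls. DESeq2 called 154 genes, 97 higher and 57 lower, and these included all 31. Called genes fell into a cluster around Arrb1 on chromosome 7, a set on chromosome 4, a pair of protocadherins on chromosome 18, and 15 genes elsewhere in the genome. The last included the vascular genes Vwf, Vegfc, Stab2, Klf2 and Car4 and the chaperones Hspb1 and Pdia6. Values below are CPM, fragment counts scaled to a common library size, changes are log2 ratios of knockout to wild type with their standard errors (SE), and adjusted p-values are from edgeR with Benjamini-Hochberg adjustment over all genes tested.

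**Figure D1:**
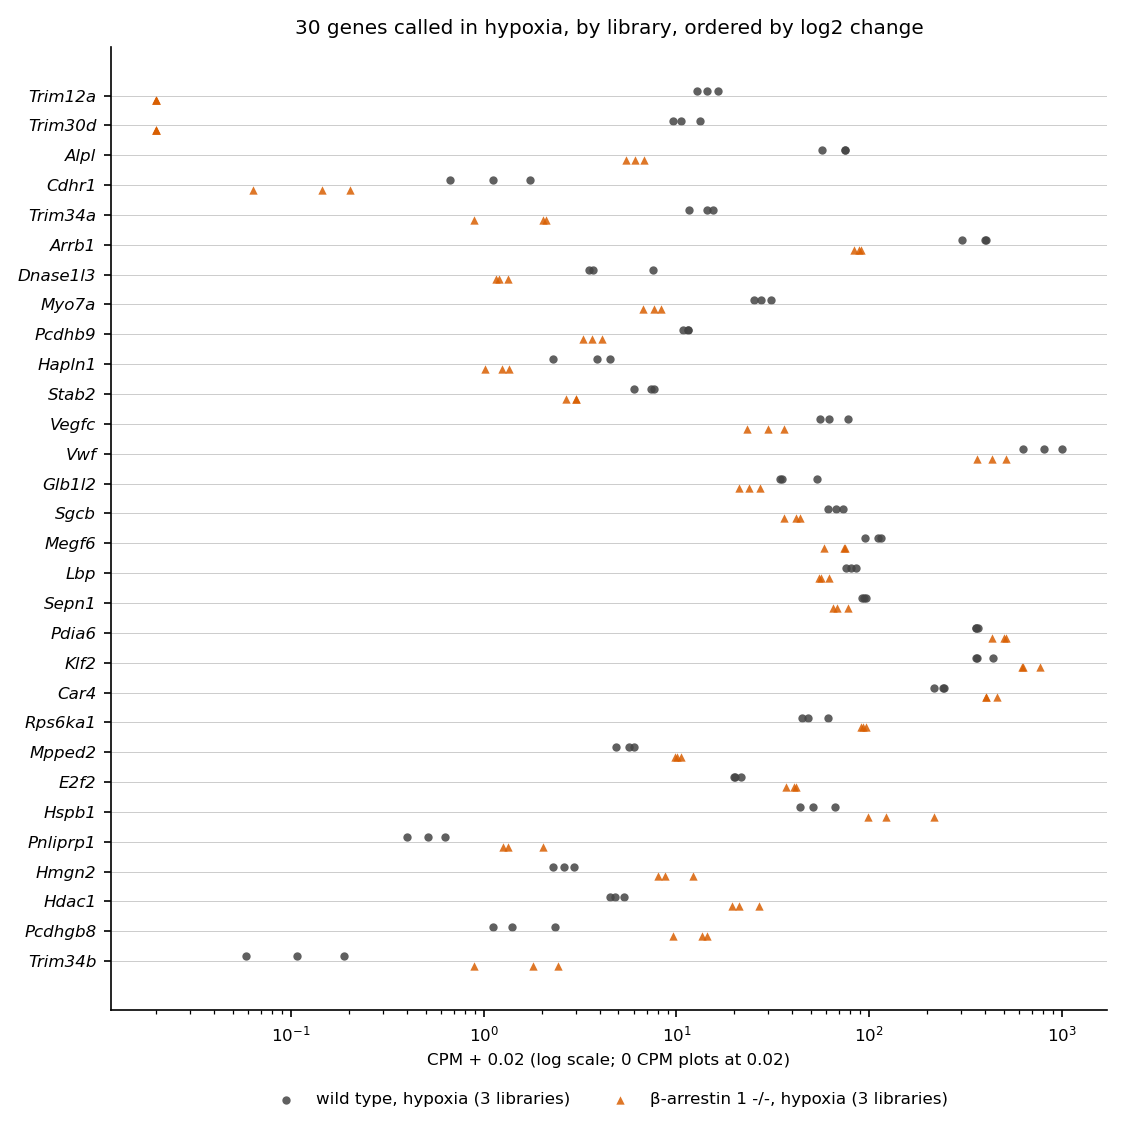
Each row is 1 of 30 called genes, ordered from the most reduced to the most raised in β-arrestin 1 -/- lung, and each point is 1 hypoxic library on a log axis of CPM + 0.02. Circles are wild type and triangles are knockout. In every row the 3 circles and 3 triangles are separate, which calling genes from these same values favours. Trim12a and Trim30d are at 0 CPM in all 3 knockout libraries.

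Arrb1, the targeted gene (chromosome 7, 99535486 to 99606771 in mm10), stood at 405, 399 and 302 CPM in the wild-type libraries and at 83.7, 88.8 and 90.7 CPM in the knockout libraries. All 3 knockout libraries were thus far below the lowest wild-type library, and the labels were borne out by the transcript. Arrb1 fell by 2.07 on the log2 scale (SE 0.12, adjusted p = 8.28e-08), to 23.8% of the wild-type mean. In normoxia Arrb1 fell by 2.18 (adjusted p = 4.01e-08). Counts are for the whole gene, and which exons gave the remaining fragments was not analysed here.

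Arrb2, the other non-visual arrestin, stood at 33.5, 40.2 and 43.3 CPM in wild type and at 39.2, 37.8 and 73.1 CPM in the knockout. The groups overlapped, and only knockout replicate 2 lay above the wild-type range. The log2 difference of 0.36 (SE 0.20) did not pass the test (adjusted p = 0.495), and without replicate 2 it was -0.01. Among 12 tested arrestin and receptor kinase genes only Arrb1 was called. Of 30 tested partners of β-arrestins, including kinases and endocytic proteins, 0 were called by edgeR, 0 had an unadjusted p below 0.05, and 0 separated the groups in either direction. Over all genes tested, 4.82% separated the groups upward and 4.97% downward, and 6.80% and 4.50% had an unadjusted p below 0.05 with a higher or a lower value in the knockout.

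Around Arrb1, 6 of the 102 genes tested within 5 Mb were called (5.88%), against 0.201% of all genes. These were Arrb1 itself, Myo7a at 1.48 Mb on the side of lower coordinates (a distance of -1.48 Mb), and 4 members of the Trim cluster at 4.71 to 4.93 Mb on the other side. Within 20 Mb there were 285 tested genes and still 6 calls (2.11%). Trim34a, Trim12a, Trim34b and Trim30d encode RING-domain ubiquitin ligases of the family of antiviral restriction factors related to Trim5. Their upstream sequences are shown because these neighbouring genes did not all move the same way: Trim12a, Trim30d and Trim34a fell and Trim34b rose. The runs are the 140 bases before each RefSeq start in the GRCm38.p6 reference, read 5′ to 3′ on the strand of the gene, so they are reference sequence and not that of the knockout line. Capitals mark a match to the core of the interferon response element, GAAA, any 2 bases and GAAA again, on either strand.
Trim34a: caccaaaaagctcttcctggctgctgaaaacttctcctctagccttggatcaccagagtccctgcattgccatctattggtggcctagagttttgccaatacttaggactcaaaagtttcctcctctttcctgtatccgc
Trim12a: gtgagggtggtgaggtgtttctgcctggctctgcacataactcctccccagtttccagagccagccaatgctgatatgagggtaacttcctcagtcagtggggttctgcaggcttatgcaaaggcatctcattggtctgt
Trim34b: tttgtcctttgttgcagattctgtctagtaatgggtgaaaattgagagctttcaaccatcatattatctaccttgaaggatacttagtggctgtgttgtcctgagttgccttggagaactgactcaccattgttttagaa
Trim30d: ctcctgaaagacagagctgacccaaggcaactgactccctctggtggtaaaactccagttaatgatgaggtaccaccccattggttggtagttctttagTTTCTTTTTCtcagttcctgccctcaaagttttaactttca

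The windows are chr7:104244317-104244456 (Trim34a, plus strand), chr7:104315496-104315635 (Trim12a, minus strand), chr7:104329331-104329470 (Trim34b, plus strand) and chr7:104507850-104507989 (Trim30d, minus strand). The window of Trim12a lies inside the locus the deposited table gives that gene, 104299897 to 104324838. It may therefore not lie upstream of all the transcripts counted for Trim12a. Only the window of Trim30d held the interferon core, which 3.04% of 27025 promoters of the table hold in the 250 bases before the start. The hypoxia response element core ACGTG was searched on both strands of the 250 bases before each of these 4 starts, a longer stretch than is printed. It had 0 matches there, against 16.6% of promoters with a match. Aligned in pairs, the windows were 44.8% to 53.3% identical, and Trim34a and Trim34b, whose transcripts are near copies, were 48.8% identical upstream.

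Trim12a had 294, 389 and 376 fragments in the wild-type libraries and 0, 0 and 0 in the knockout libraries. No fragment was counted in any knockout library (adjusted p = 1.81e-09, the smallest of the comparison). Taking 3 fragments over the 3 knockout libraries as the limit of a count of 0, Trim12a was at least 295-fold lower. Trim30d had 244, 314 and 250 fragments in wild type and 0, 0 and 0 in the knockout, which made it at least 225-fold lower (adjusted p = 7.46e-09). In normoxia the 3 knockout libraries together held 1 fragment of Trim12a and 6 of Trim30d, against 1072 and 814 in wild type. Neither gene was lost as a call under any alternative tried.

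Trim34a stood at 14.4, 15.5 and 11.6 CPM in wild type and at 2.01, 2.09 and 0.876 CPM in the knockout. Trim34a fell by 3.02 (SE 0.22, adjusted p = 9.39e-07). Its near copy Trim34b moved the opposite way, from 0.0869, 0.169 and 0.0382 CPM in wild type to 1.79, 2.4 and 0.876 CPM in the knockout. The knockout libraries thus held similar levels of both copies while the wild-type libraries held nearly all of their signal on Trim34a. The rise of Trim34b was 4.07 (SE 0.56, adjusted p = 0.00237). Of the 50-base words of Trim34a transcripts, 59.7% also occur in another gene, chiefly Trim34b, and 56.8% of those of Trim34b occur in Trim34a, so how fragments were divided between the copies is uncertain. Summed, the 2 copies gave 14.5, 15.7 and 11.6 CPM in wild type and 3.8, 4.49 and 1.75 CPM in the knockout, so the sum was also lower in all 3 knockout libraries.

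Other members of the cluster behaved otherwise, and they are named here after their values were seen. Trim12c, which shares sequence with Trim12a, stood at 22.6, 19.7 and 15.2 CPM in wild type and at 27.2, 31.7 and 28.2 CPM in the knockout, all 3 above the wild-type range (0.60, SE 0.14, adjusted p = 0.144). Trim30a, whose product restrains NF-κB signalling, overlapped between the groups, with 29.5, 37.1 and 24.4 CPM against 31.1, 37.9 and 27.7 CPM. Trim30b was low throughout, with 16, 32 and 56 fragments in wild type and 0, 2 and 7 in the knockout (adjusted p = 0.173). Transcript words shared with other genes made up 10.5% of Trim12a and 7.49% of Trim30d.

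Myo7a, an unconventional myosin best known from the inner ear and retina, stood at 30.9, 27.4 and 25.1 CPM in wild type and at 7.64, 8.25 and 6.69 CPM in the knockout. The groups were far apart and each was tight. Myo7a fell by 1.88 (SE 0.12, adjusted p = 2.06e-07), and by 1.76 in normoxia (adjusted p = 5.72e-07).

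Chromosome 4 held 8 of its 947 tested genes as calls (0.845%). A group of 6, Hdac1, Rps6ka1, Hmgn2, Sepn1, E2f2 and Alpl, lay within 5 Mb of Hmgn2, where 168 genes were tested (3.57% called); that centre was chosen after the calls were seen. Megf6 lay farther away, at 20.21 Mb from Hmgn2. Outside chromosomes 4, 7 and 18, 15 of 12842 genes were called (0.117%).

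**Figure D2:**
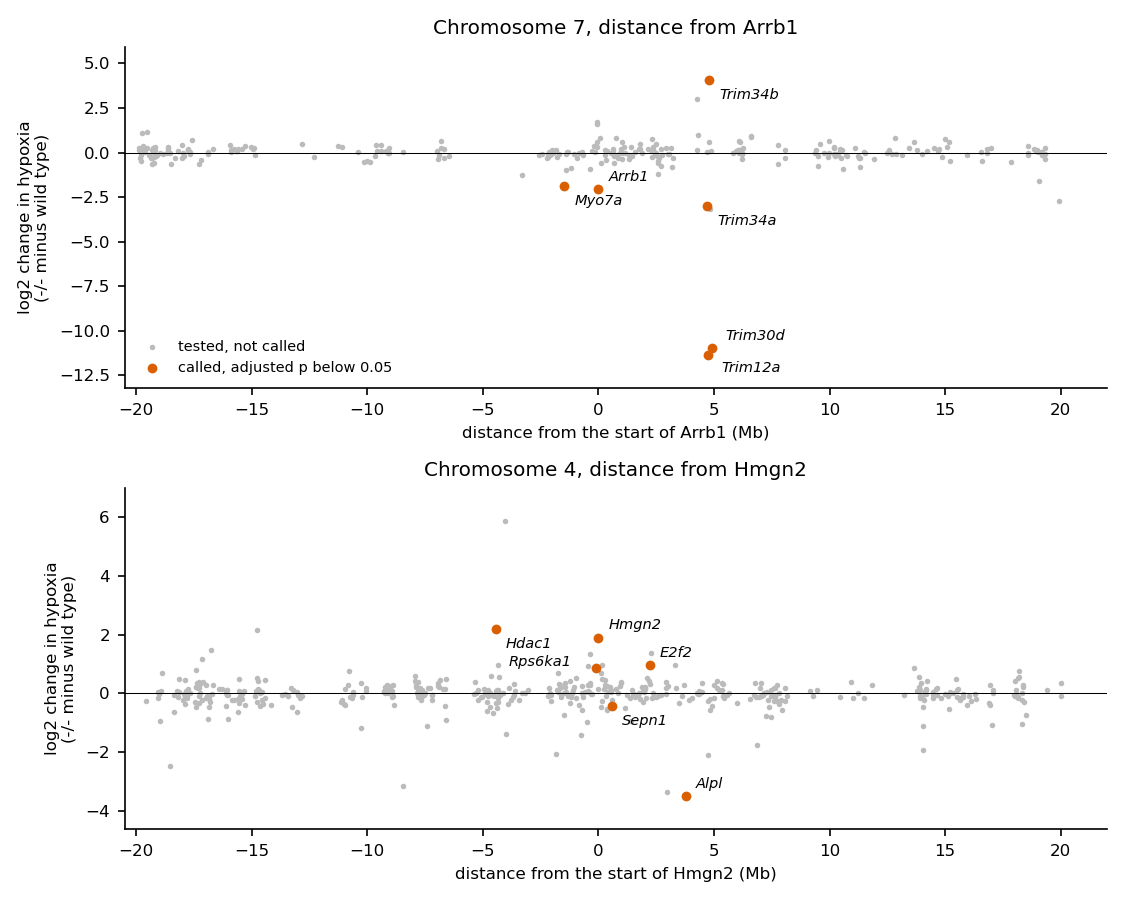
Log2 change in hypoxia (vertical axis) of tested genes on chromosome 7 against their distance in Mb from Arrb1, and on chromosome 4 against their distance from Hmgn2. Orange points are called genes and grey points are genes not called. The chromosome 7 calls lie between -1.48 and 4.93 Mb of Arrb1, with Trim34b above 0 and Trim12a, Trim30d and Trim34a far below it; Megf6, 20.21 Mb from Hmgn2, lies outside the plotted range.

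Hdac1, a histone deacetylase, stood at 4.52, 4.78 and 5.35 CPM in wild type and at 21.1, 19.4 and 26.7 CPM in the knockout. Hdac1 rose by 2.19 (SE 0.23, adjusted p = 9.33e-05), to 458% of the wild-type mean. Hmgn2, a nucleosome-binding protein, stood at 2.91, 2.58 and 2.26 CPM in wild type and at 7.96, 8.73 and 12.1 CPM in the knockout, a rise of 1.89 (SE 0.18, adjusted p = 5.58e-05). Both genes have processed copies elsewhere in the genome: 35.5% of the transcript words of Hdac1 and 25.4% of those of Hmgn2 occur in another gene, chiefly pseudogenes, so their counts are uncertain. Both kept their call without each of the 6 libraries in turn.

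Rps6ka1, the growth factor-activated kinase RSK1 downstream of ERK, stood at 48.1, 61.3 and 45 CPM in wild type and at 96.7, 91 and 92.5 CPM in the knockout. The 3 knockout values were close together and well above the highest wild-type value (0.86, SE 0.11, adjusted p = 0.00152). E2f2, a transcription factor of the cell cycle, stood at 19.9, 20 and 21.7 CPM in wild type and at 41.9, 36.8 and 40.9 CPM in the knockout, a rise of 0.96 (SE 0.15, adjusted p = 0.0121). Without wild-type replicate 0 or replicate 1 the adjusted p of E2f2 rose to 0.0858 at most. The cell cycle list, which does not hold E2f2, had 0 calls by edgeR among 39 tested genes, with 2 higher and 5 lower at an unadjusted p below 0.05. That lower count was 19 without wild-type replicate 0, 2 without knockout replicate 0, 1 without knockout replicate 2 and with the tissue score, and 0 without wild-type replicate 2. With all libraries 6.80% of all genes were higher and 4.50% lower at such a p.

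Alpl, the tissue-nonspecific alkaline phosphatase that frees phosphate from extracellular substrates, stood at 75, 56.6 and 75.1 CPM in wild type and at 6.77, 6.11 and 5.44 CPM in the knockout. The knockout mean was 8.87% of the wild-type mean. Alpl fell by 3.49 (SE 0.45, adjusted p = 0.00124), and it kept its call under every alternative tried. In normoxia wild-type Alpl was itself uneven, at 44.3, 7.89 and 35.4 CPM, against 9.28, 8.89 and 10.2 CPM in the knockout, and the difference there did not pass the test (-1.63, adjusted p = 0.153). The hypoxia change minus the normoxia change was -1.86, which did not pass the test of the difference either (adjusted p = 0.807).

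Sepn1, the selenoprotein N of the endoplasmic reticulum, stood at 94.5, 96 and 92.2 CPM in wild type and at 67.8, 64.8 and 77.4 CPM in the knockout, a fall of 0.43 (SE 0.08, adjusted p = 0.04). Megf6, a secreted protein with EGF-like repeats, stood at 94.8, 111 and 115 CPM in wild type and at 75.3, 74.1 and 58.5 CPM in the knockout, a fall of 0.63 (SE 0.11, adjusted p = 0.0251). Both are modest shifts of abundant genes that recurred in normoxia, where Sepn1 fell by 0.50 (adjusted p = 0.011) and Megf6 by 0.78 (adjusted p = 0.00314). Sepn1 lost its call without any 1 of 5 of the 6 libraries, all but knockout replicate 2 (adjusted p up to 0.152). Megf6 lost it without wild-type replicate 1 or 2 or knockout replicate 2 (adjusted p up to 0.135), and with the tissue score as a covariate (adjusted p = 0.058).

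Clustered protocadherins are adhesion proteins, best known from neurons, that are made from neighbouring first exons joined to shared exons. On chromosome 18, Pcdhb9 stood at 11.5, 10.8 and 11.4 CPM in wild type and at 4.07, 3.62 and 3.25 CPM in the knockout, a fall of 1.62 (SE 0.23, adjusted p = 0.00299). Pcdhgb8, annotated as a transcribed pseudogene, moved the other way, from 1.39, 1.1 and 2.33 CPM to 9.57, 13.5 and 14.4 CPM, a rise of 2.94 (SE 0.29, adjusted p = 6.28e-05). Neither pair of groups overlapped, and both differences recurred in normoxia (-1.50 and 2.81). The deposited table gives both genes the same locus of the whole cluster, and 50.2% of the words of Pcdhgb8 occur in other protocadherins, so the split of fragments between members is uncertain.

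Among called genes known for a role in vessels, Vwf, Vegfc and Stab2 fell and Car4 and Klf2 rose in β-arrestin 1 -/- lung; this grouping was made after the calls were seen. Vwf, the adhesive protein stored by endothelium for platelet capture, stood at 998, 806 and 627 CPM in wild type and at 514, 436 and 361 CPM in the knockout. All 3 knockout libraries were below the lowest wild-type library. Vwf fell by 0.89 (SE 0.16, adjusted p = 0.0342), to 54% of the wild-type mean.

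Vegfc, the ligand of VEGF receptor 3 that drives growth of lymphatic vessels, stood at 77.5, 55.7 and 62.2 CPM in wild type and at 36.1, 23.1 and 29.8 CPM in the knockout. Vegfc fell by 1.14 (SE 0.17, adjusted p = 0.00677), to 45.5% of the wild-type mean. It kept its call without each of the 6 libraries in turn. In normoxia Vegfc was 33.8, 36.7 and 28.2 CPM in wild type and 18.8, 22.4 and 19 CPM in the knockout, again without overlap, but did not pass the test (-0.71, adjusted p = 0.131). The hypoxia change minus the normoxia change was -0.42 (adjusted p = 0.807), so the exposures were not shown to differ.

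Stab2, a scavenger receptor for hyaluronan found on sinusoidal endothelium, stood at 7.65, 7.32 and 6.04 CPM in wild type and at 2.65, 3.01 and 3 CPM in the knockout, a fall of 1.28 (SE 0.22, adjusted p = 0.0251). In normoxia it was low in both genotypes, at 1.19 to 1.77 CPM in wild type and 0.672 to 1.44 CPM in the knockout, with overlapping groups (-0.46, adjusted p = 0.655). The hypoxia change of Stab2 minus its normoxia change was -0.81 (adjusted p = 0.807), so the exposures were not shown to differ. Dnase1l3, a secreted nuclease that degrades DNA of extracellular chromatin, stood at 3.65, 3.51 and 7.57 CPM in wild type and at 1.14, 1.18 and 1.31 CPM in the knockout, a fall of 2.02 (SE 0.37, adjusted p = 0.0342). Wild-type replicate 2 was the high library for Dnase1l3, and without it the log2 difference was -1.56 with an adjusted p of 0.159.

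Car4, a carbonic anhydrase anchored to the surface of lung capillaries, stood at 244, 241 and 216 CPM in wild type and at 405, 404 and 461 CPM in the knockout. Both groups were tight and well apart. Car4 rose by 0.86 (SE 0.11, adjusted p = 0.000889), to 181% of the wild-type mean, and kept its call without each library in turn. Klf2, a transcription factor induced by blood flow in endothelium, stood at 441, 363 and 359 CPM in wild type and at 631, 618 and 771 CPM in the knockout, a rise of 0.80 (SE 0.14, adjusted p = 0.0264). Car4 also stands on the alveolar macrophage list, where it was the 1 call among 28 genes tested, and Klf2 on the immediate early list, where it was the 1 call among 38.

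**Figure D3:**
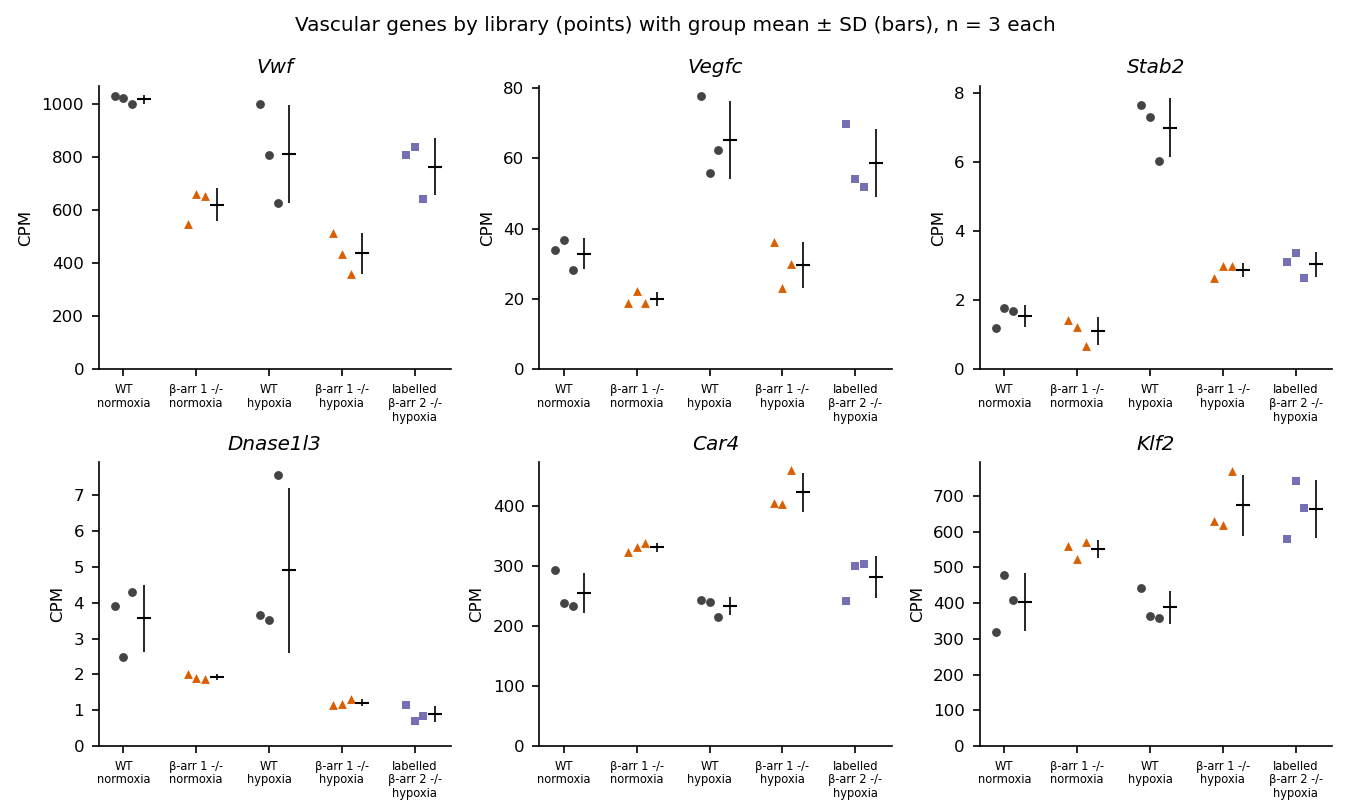
CPM (vertical axes, from 0) of Vwf, Vegfc, Stab2, Dnase1l3, Car4 and Klf2 in each library of 5 groups, with the group mean and SD (n = 3) as a bar. The hypoxic knockout lies below hypoxic wild type for the first 4 genes and above it for Car4 and Klf2, and the hypoxic libraries labelled β-arrestin 2 -/- lie near the hypoxic knockout for Stab2, Dnase1l3 and Klf2.

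The firmness of these vascular calls differed. Vwf lost its call without wild-type replicate 0 or 1 or knockout replicate 1 or 2 (adjusted p up to 0.149). Stab2 lost it without any 1 library except wild-type replicate 2 (up to 0.127), and Dnase1l3 without wild-type replicate 2 or any 1 knockout library (up to 0.159). Klf2 lost it without wild-type replicate 1 or 2 or knockout replicate 2 (up to 0.142). With the tissue score as a covariate, Stab2 (adjusted p = 0.0822), Dnase1l3 (0.124) and Klf2 (0.0911) were no longer called, while Vwf, Vegfc and Car4 were. All 6 lost their call when only the 6 hypoxic libraries were fitted, with adjusted p from 0.148 for Car4 to 0.952 for Vwf.

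The wider endothelial list did not move in 1 direction: 28 genes had a higher fitted value in the knockout and 11 a lower one. Of 39 genes tested, Car4 was called higher and Vwf lower, 9 had an unadjusted p below 0.05 with a higher value in the knockout and 2 with a lower one, against 6.80% and 4.50% of all genes (7 to 13 higher and 2 to 4 lower without single libraries), and the median log2 difference was 0.16 against 0.00 over all genes. The summed level of the list was 10219 to 12210 CPM in wild type and 13022 to 13574 CPM in the knockout, without overlap. The mean log2 level of its genes, which weights each gene equally and is given relative to the mean of the 6 libraries, did overlap, at 0.01, 0.06 and -0.24 in wild type and 0.11, 0.11 and -0.06 in the knockout. In normoxia 5 genes of the list were higher and 9 lower at an unadjusted p below 0.05, with a median of -0.03. Over all genes those normoxic shares were 4.48% and 4.23%. Values of 3 further members in hypoxia are given, chosen after they were seen. Emcn, a sialomucin of capillaries and veins, stood at 124, 101 and 183 CPM in wild type and 289, 188 and 186 CPM in the knockout (0.70, adjusted p = 0.29). Ednrb, the endothelin B receptor, stood at 119, 116 and 62 CPM and at 162, 163 and 130 CPM (0.62, adjusted p = 0.343). Lyve1, a hyaluronan receptor of lymphatic vessels and perivascular macrophages, stood at 142, 153 and 107 CPM and at 80.6, 78.6 and 70.8 CPM (-0.80, adjusted p = 0.0661), which separated the groups but missed the threshold. Lyve1 passed with the tissue score as a covariate (-0.96, adjusted p = 0.00791), without wild-type replicate 2 (adjusted p = 0.033) and with DESeq2 (adjusted p = 0.0014), and its adjusted p reached 0.273 without other single libraries.

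Chaperones help proteins to fold, in the cytosol as heat shock proteins and in the endoplasmic reticulum as binding proteins and disulfide isomerases. Of 35 genes tested on the heat shock and endoplasmic reticulum chaperone list, 2 were called and both were higher in the knockout: Hspb1 and Pdia6. Hspb1, a small heat shock protein, stood at 66.1, 51.1 and 43.9 CPM in wild type and at 122, 99 and 217 CPM in the knockout, a rise of 1.44 (SE 0.26, adjusted p = 0.0341). Pdia6, a disulfide isomerase of the endoplasmic reticulum, stood at 367, 359 and 358 CPM and at 503, 433 and 510 CPM, a rise of 0.42 (SE 0.08, adjusted p = 0.047). The highest Hspb1 value was that of knockout replicate 2, and 50.1% of its transcript words occur in 2 other genes.

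Across the list, 33 of 35 genes had a higher fitted value in the knockout, 13 had an unadjusted p below 0.05 and all 13 were higher, and 10 separated the groups, all upward. Over all genes 6.80% had such a p with a higher value and 4.82% separated upward. The median was 0.35, against 0.00 over all genes. The summed level was 8833 to 10811 CPM in wild type and 11055 to 13947 CPM in the knockout, without overlap. The mean log2 level of its genes overlapped, at 0.06, -0.41 and -0.15 in wild type and 0.43, -0.11 and 0.18 in the knockout, with wild-type replicate 0 above knockout replicate 1. Hsp90b1, the endoplasmic reticulum form of HSP90, stood at 1178, 1088 and 977 CPM and at 1510, 1339 and 1691 CPM (0.49, adjusted p = 0.0613, and 0.0289 without knockout replicate 1). Hsp90ab1, the cytosolic form, stood at 2225, 1761 and 1604 CPM and at 3199, 2521 and 2807 CPM (0.61, adjusted p = 0.164). Calr, the lectin chaperone calreticulin, was at 0.41 (adjusted p = 0.21). DESeq2 called all 3, at an adjusted p of 2.23e-05 for Hsp90b1, 0.0112 for Hsp90ab1 and 0.0261 for Calr. These 3 are named after their values were seen. In normoxia 0 genes of the list were called by edgeR, 23 had an unadjusted p below 0.05 with a higher value in the knockout and 0 with a lower one (4.48% and 4.23% of all genes), and the median was 0.37. In both exposures 12 genes had an unadjusted p below 0.05 in the upward direction.

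**Figure D4:**
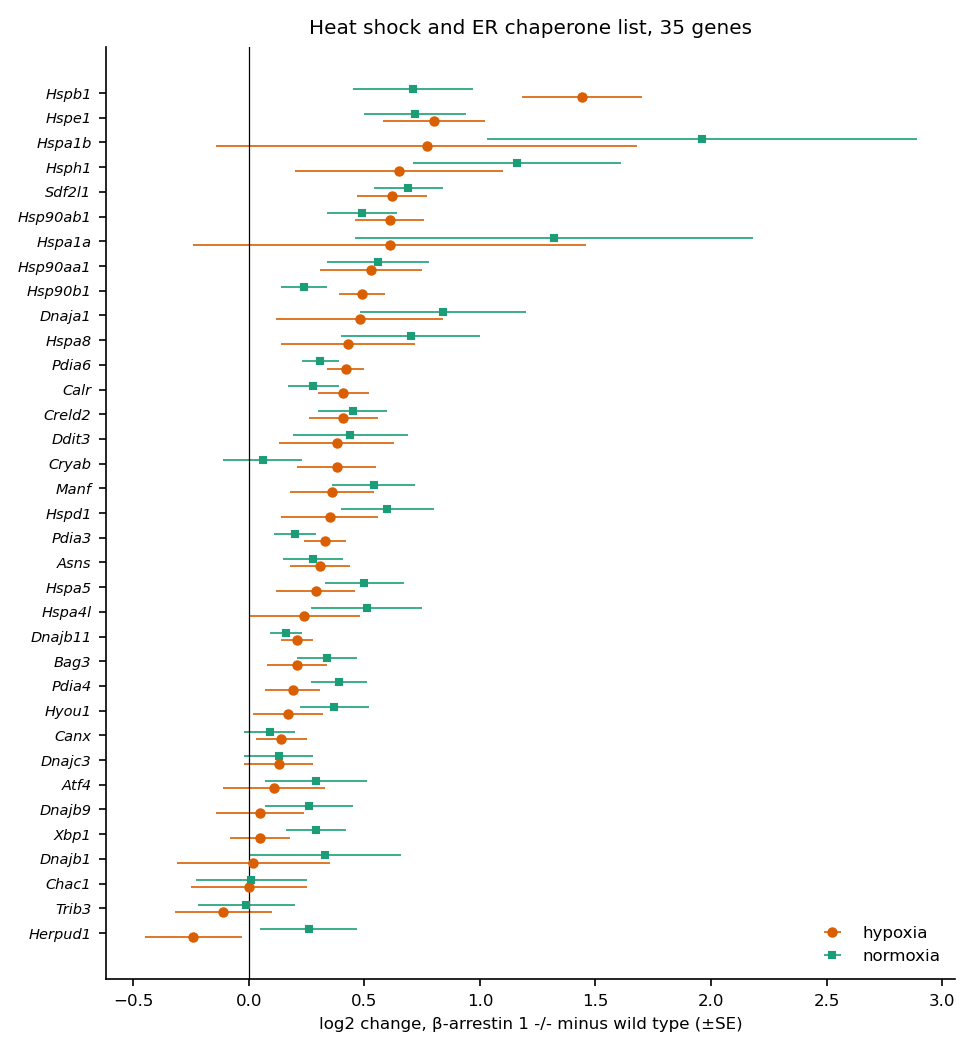
Log2 change between β-arrestin 1 -/- and wild type (horizontal axis, ±SE) of the 35 chaperone genes tested, ordered by the change in hypoxia. Circles are hypoxia and squares are normoxia. Of the 35 hypoxia values 33 are above 0, with Hspb1 at 1.44, and Hspb1 and Pdia6 alone passed the edgeR test.

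Leaving out each of the 6 libraries left between 10 and 16 genes with an unadjusted p below 0.05 and a higher value, and 11 with the tissue score as a covariate. Hspb1 was lost without wild-type replicate 1 or 2 or knockout replicate 2 (adjusted p up to 0.185). Pdia6 was lost without any 1 library except knockout replicate 1 (up to 0.161). Both calls were also lost with the tissue score, at an adjusted p of 0.109 for Hspb1 and 0.176 for Pdia6.

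The remaining called genes lay apart from each other in position and role. Sgcb, β-sarcoglycan of the complex that ties the muscle cytoskeleton to the matrix, stood at 73.2, 61 and 67.5 CPM in wild type and at 36.3, 43.6 and 41.7 CPM in the knockout, and it fell by 0.73 (SE 0.11, adjusted p = 0.00563), and by 0.83 in normoxia (adjusted p = 0.00152). Hapln1, which links hyaluronan to proteoglycans in the matrix, stood at 4.52, 3.85 and 2.26 CPM and at 1.33, 1.22 and 1 CPM, a fall of 1.57 (SE 0.26, adjusted p = 0.013). Lbp, the binding protein for bacterial lipopolysaccharide, stood at 76.1, 80.6 and 85.1 CPM and at 56.1, 61.7 and 55.1 CPM, a fall of 0.48 (SE 0.09, adjusted p = 0.0332). Sgcb kept its call without each library in turn. Hapln1 lost it without wild-type replicate 0 or 1 or knockout replicate 1 or 2 (adjusted p up to 0.0827), and Lbp without wild-type replicate 1 or 2 or knockout replicate 0 or 2 (up to 0.155). With the tissue score both were lost, at 0.058 for Hapln1 and 0.109 for Lbp.

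Glb1l2, a relative of β-galactosidase, stood at 53.6, 34.6 and 35.4 CPM in wild type and at 27.2, 23.8 and 21.2 CPM in the knockout (-0.77, SE 0.15, adjusted p = 0.0498). Mpped2, a metallophosphoesterase, stood at 4.82, 6.01 and 5.66 CPM and at 10.1, 10.6 and 9.76 CPM (0.88, SE 0.17, adjusted p = 0.047). Both calls were at the edge of the threshold. Mpped2 lost its call when any 1 of the 6 libraries was left out (up to 0.155), and Glb1l2 without wild-type replicate 0 or any 1 knockout library (up to 0.221). Pnliprp1, a pancreatic lipase-related protein, was near the limit of detection, at 0.608, 0.381 and 0.497 CPM and 1.24, 1.31 and 2 CPM (1.59, SE 0.28, adjusted p = 0.0249). Cdhr1, a cadherin of photoreceptors, was as scarce, at 0.652, 1.1 and 1.72 CPM and 0.183, 0.0436 and 0.125 CPM (-3.27, SE 0.63, adjusted p = 0.047). Pnliprp1 lost its call without wild-type replicate 1 or 2 or knockout replicate 2 (up to 0.131), and Cdhr1 without any 1 library except wild-type replicate 0 (up to 0.197). With the tissue score all 4 were lost, at 0.0715 for Glb1l2, 0.0656 for Mpped2, 0.058 for Pnliprp1 and 0.176 for Cdhr1.

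In all 36 lists of pathways and cell types, 5 held a called gene, 6 called genes stood on a list and 25 on none. On the vasoactive list 0 of 50 genes passed the test in edgeR, with 6 higher and 4 lower at an unadjusted p below 0.05. The member of smallest p was Adrb3, the β3-adrenergic receptor, at 13.9, 12.7 and 9.94 CPM in wild type and 15.7, 19 and 24.3 CPM in the knockout (0.69, adjusted p = 0.135). On the list of hypoxia-inducible factors, their targets and glycolysis 0 of 43 passed, with 3 higher and 2 lower at an unadjusted p below 0.05, led by the lipid droplet gene Hilpda at 43.8, 55.4 and 39.4 CPM and 61.9, 68.9 and 140 CPM (0.96, adjusted p = 0.191). On the BMP and TGF-β list 0 of 41 passed, with 8 higher and 3 lower, led by the BMP antagonist Nog at 0.304 to 0.508 CPM in wild type and 0.96 to 1.28 CPM in the knockout (1.39, adjusted p = 0.117). The 18 nitric oxide and cGMP genes tested gave 0 calls by edgeR, with 0 higher and 1 lower. Over all genes the shares were 6.80% higher and 4.50% lower. Without single libraries the lower vasoactive count went from 1 (without knockout replicate 2) to 6, and the higher BMP and TGF-β count from 4 (without knockout replicate 2 or wild-type replicate 2) to 8, with 3 under the tissue score. On the list of hypoxia-inducible factors the lower count went from 0 (without knockout replicate 2) to 5 (without knockout replicate 1).

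Several lists had 0 calls by edgeR and more genes lower than higher at an unadjusted p below 0.05. Values are given here for 3 picked from them. Over all genes 6.80% were higher and 4.50% lower at such a p, and 4.97% separated the groups downward. Of 42 collagen and matrix genes, 0 were higher and 5 lower at an unadjusted p below 0.05, and 8 separated the groups downward, with Col8a1, a collagen of vessel walls, at 21.9, 22.3 and 23.7 CPM in wild type and 15.8, 15.7 and 11.8 CPM in the knockout (-0.64, adjusted p = 0.178). Without wild-type replicate 2 the count was 1, and with the tissue score 2. Of 17 regulators of G protein signalling, which speed the shut-off of G proteins, 0 were higher and 3 lower, with Rgs6 at -0.36 (adjusted p = 0.4). Their lower count was 0 without wild-type replicate 2 and with the tissue score, 1 without wild-type replicate 1 or knockout replicate 2, and 5 without wild-type replicate 0. Of 26 circadian clock genes, 0 were higher and 5 lower with a median of -0.40, and Tef, a clock output factor, stood at 233, 275 and 340 CPM and 181, 179 and 167 CPM (-0.69, adjusted p = 0.29). The clock count was 1 without wild-type replicate 2 and 9 without wild-type replicate 0. No hour of sampling is given in the labels.

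Lists of cells that a piece of lung can hold in uneven amounts moved with single libraries. Of 30 club and secretory airway genes, 1 was higher and 9 lower at an unadjusted p below 0.05, and 9 separated the groups downward, with a median of -0.32. Over all genes 4.50% were lower at such a p and 4.97% separated downward. Clca3, a goblet cell gene, had the smallest p of the list (-5.76, adjusted p = 0.242). It stood at 1.09, 16.2 and 33 CPM in wild type and at 0.0458, 0.785 and 0 CPM in the knockout. Muc5b, a gel-forming airway mucin, is named after its values were seen. Muc5b stood at 97.3, 90.8 and 184 CPM in wild type and at 27, 88.2 and 14.1 CPM in the knockout (-1.52, adjusted p = 0.408). For Muc5b knockout replicate 1 was close to wild type and the other 2 knockout libraries were low. These 2 also had the low tissue scores, of which the airway genes are themselves a part. The number of lower genes was 2 without wild-type replicate 2, 4 without knockout replicate 0 or 2, 13 without knockout replicate 1, and 7 with the tissue score; the part of these libraries in the result was not tested. In normoxia the median of the airway list was 0.31. The 32 cardiac muscle genes scored 0.41, 0.10 and 0.80 in wild type and -1.62, 1.14 and -0.83 in the knockout. Muscle of the pulmonary vein sleeve expresses such genes, but their source in these libraries was not tested. In hypoxia 27 had a lower fitted value in the knockout and 5 a higher one, with a median of -0.34. At an unadjusted p below 0.05, 2 were higher and 0 lower. The lower count was 10 without knockout replicate 1, and the higher count was 7 with the tissue score, of which these genes are a part. In normoxia 24 of the 32 were higher at an unadjusted p below 0.05, against 4.48% of all genes, and the median of the list was 2.46. One of the 2 genes higher at such a p in hypoxia was Myh7, the slow myosin heavy chain. Myh7 stood at 20.4, 29.4 and 18.3 CPM in wild type and at 38, 53.1 and 50.4 CPM in the knockout (1.06, adjusted p = 0.173). It was called in normoxia (1.43, adjusted p = 0.0398).

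The immune lists held 1 called gene, Car4. For the counts that follow, 6.80% of all genes were higher and 4.50% lower at an unadjusted p below 0.05. The T and NK cell list gave 0 of 39 in either direction at an unadjusted p below 0.05, the interferon-stimulated list 0 of 48, and the inflammatory list 1 higher and 3 lower of 47, with the pentraxin Ptx3 at 13, 12.6 and 5.62 CPM in wild type and 4.3, 4.36 and 3.94 CPM in the knockout (-1.30, adjusted p = 0.209). These counts moved with single libraries. The T and NK list had 3 higher without knockout replicate 0 and 3 lower without knockout replicate 2. The interferon list had 6 higher without knockout replicate 0, 4 without wild-type replicate 2 and 5 with the tissue score, and the inflammatory list 9 lower without wild-type replicate 0, 8 without wild-type replicate 1 and 6 without knockout replicate 1. Of 28 alveolar macrophage genes, 18 had a higher fitted value in the knockout and 10 a lower one, with a median of 0.08. At an unadjusted p below 0.05, 3 were higher and 2 lower. One of the 10 lower genes, the lysosomal glycoprotein gene Gpnmb, is named after its values were seen. Gpnmb stood at 40.2, 39.3 and 29.6 CPM in wild type and at 24.4, 22.6 and 21.1 CPM in the knockout (-0.68, adjusted p = 0.152). All 14 mesothelial genes tested had a higher fitted value in the knockout (median 0.35), and 3 had an unadjusted p below 0.05 (1 without knockout replicate 0), led by Nkain4 (0.67, adjusted p = 0.24). Of 29 glucocorticoid and fasting-responsive genes, 1 was higher and 4 lower (0 to 6 lower without single libraries), with the kinase Sgk1 at 418, 250 and 348 CPM and at 589, 500 and 509 CPM (0.65, adjusted p = 0.0951, and 0.0196 without wild-type replicate 0). Of 21 fibroblast genes 5 were higher (1 without knockout replicate 2) and 0 lower, with the receptor Fgfr4 at 0.46 (adjusted p = 0.333) here and called in normoxia (0.80, adjusted p = 0.0385).

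In normoxia, from 6 other libraries, the same genotypes differed in 34 genes (0.221%), 12 higher (0.0780%) and 22 lower (0.143%). In both exposures 14 genes were called, 45.2% of the hypoxia calls and 41.2% of the normoxia calls, and all 14 changed in the same direction: Hdac1, Hmgn2, Rps6ka1, Pcdhgb8 and Trim34b were higher, and Arrb1, Megf6, Myo7a, Pcdhb9, Sepn1, Sgcb, Trim12a, Trim30d and Trim34a were lower. Of all 31 hypoxia calls, 30 had the same sign in normoxia, and 26 also separated the normoxic groups, which 10.8% of all genes did upward and 11.8% downward. Of the 17 genes called in hypoxia alone, 16 had the same sign in normoxia. The exception was Cdhr1, whose normoxic libraries were all below 0.5 CPM.

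**Figure D5:**
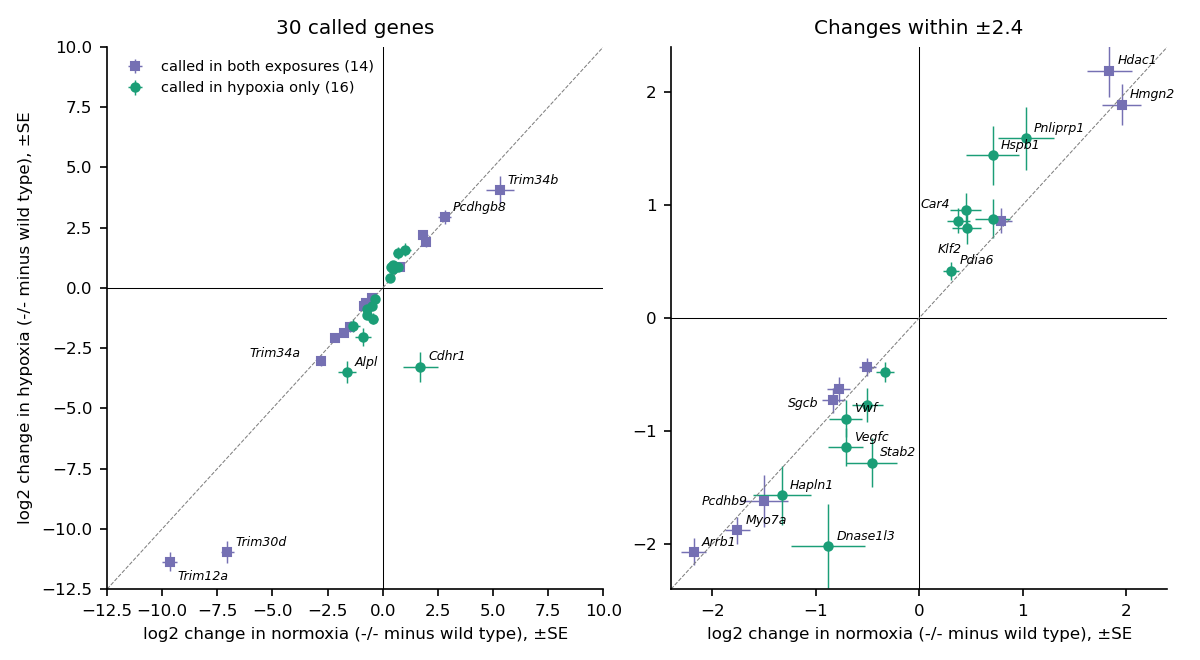
Log2 change between β-arrestin 1 -/- and wild type in hypoxia (vertical axis) against that in normoxia (horizontal axis), ±SE, for 30 genes called in hypoxia. The right panel enlarges the centre, and the dashed line marks equal changes. The 14 genes called in both exposures (squares) lie near the line except Trim12a, Trim30d and Trim34b, whose fitted values rest on counts at or near 0 in 1 genotype, and Cdhr1 lies far from it.

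The difference of the genotype effect between hypoxia and normoxia was tested directly, and 0 genes (0.00%) passed in edgeR, with a smallest adjusted p of 0.352 and 898 genes at an unadjusted p below 0.05. DESeq2 called 9, limma without a minimum on FPKM called 2, and edgeR on the 12 libraries of these 4 groups called 1. Among the smallest p-values were those of Sele, Hpgd, Fer1l4, Cdhr1 and Slc45a4. Sele, the endothelial adhesion receptor E-selectin, was at 1.3, 0.762 and 0.688 CPM in hypoxic wild type and 0.504, 0.785 and 0.313 CPM in the hypoxic knockout, and at 1.01, 0.574 and 0.972 CPM and 4.93, 3.55 and 4.62 CPM in normoxia. Sele rose in the normoxic knockout (2.35, adjusted p = 0.00857), and the groups overlapped in hypoxia (-0.73); the difference did not pass its own test (adjusted p = 0.352). Hpgd, which inactivates prostaglandins, was at 536, 458 and 299 CPM and 674, 575 and 734 CPM in hypoxia (0.62) and had a value of -0.73 in normoxia, with an adjusted p of 0.407 for the difference. The changes of Fer1l4 in hypoxia (-1.65) and of Slc45a4 (-0.07) were not called, although Slc45a4 was called in normoxia (-0.80, adjusted p = 0.00164).

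Calls made in normoxia alone numbered 20, of which 18 had the same sign in hypoxia. Of the 20, 4 lay on chromosome 4. Bai2, an adhesion receptor, was at 1.96, 1.9 and 3.4 CPM in hypoxic wild type and 0.687, 0.96 and 1.19 CPM in the hypoxic knockout (-1.37, adjusted p = 0.152), and Cd164l2 at 1.65, 1.44 and 1.76 CPM and 0.595, 0.393 and 0.876 CPM (-1.41, adjusted p = 0.0661, and 0.0433 without knockout replicate 2). Cep85, a centrosomal protein, was at 11.7, 11.3 and 13.1 CPM and 20.3, 16.1 and 14 CPM (0.48, adjusted p = 0.319), and Sfn, the 14-3-3σ protein, at 7.73, 5.04 and 14.7 CPM and 24.5, 16.8 and 28.8 CPM (1.35, adjusted p = 0.164, and 0.0271 without wild-type replicate 2). All 4, picked from the 20 by their chromosome, separated the hypoxic groups in the direction seen in normoxia. Over all genes 4.82% separated the hypoxic groups upward and 4.97% downward.

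The hypoxic knockout was also set beside the 3 hypoxic libraries labelled β-arrestin 2 -/-, in a comparison that shares the 3 knockout libraries. Arrb2 in those labelled libraries was 30.7, 37.8 and 34.6 CPM, within or just below the 33.5 to 43.3 CPM of hypoxic wild type, so the transcript does not bear out that label, and Arrb1 there was 370, 364 and 359 CPM. The 2 lines differed in 578 genes (3.76%). Of the 31 genes above, 23 were called there, all in the same direction, and 8 were not, among them Cdhr1, Dnase1l3, Stab2, Lbp, Klf2, Rps6ka1 and Hmgn2. For several of these, values are given side by side. Klf2 was 388 ± 46.4 CPM in wild type, 673 ± 84.6 in the knockout and 663 ± 82.1 in the labelled libraries (SD, n = 3 each). Stab2 was 7 ± 0.85, 2.89 ± 0.203 and 3.05 ± 0.363 CPM in the same order, Hmgn2 2.58 ± 0.328, 9.59 ± 2.19 and 10.4 ± 1.96, and Rps6ka1 51.5 ± 8.67, 93.4 ± 2.95 and 114 ± 12. For these 4 genes both mutant lines lay on the same side of wild type, with the wild-type libraries shared. Vwf, at 763 ± 108 CPM in the labelled libraries, Vegfc, at 58.5 ± 9.67, and Car4, at 283 ± 34.9, lay nearer to wild type there.

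In the authors' deposited table of their own Cuffdiff comparisons, 647 genes had a q-value below 0.05 for hypoxic β-arrestin 1 -/- against hypoxic wild type, 365 higher and 278 lower among those with a usable statistic. In the authors' deposited table, 27 of the 31 genes called here also passed (87.1% of the 31, and 4.19% of the authors' calls among the genes tested here). For 25 of the 27 the authors' deposited table gives a usable statistic, and all 25 had the sign found here. Cdhr1, Pcdhb9, Pcdhgb8 and Pdia6 did not pass in the authors' deposited table.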

How the data were processed

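Fragment counts per gene (estimated counts, 93.3% of them whole) and FPKM values were deposited by the authors, who used FastQC, TopHat and Cuffdiff with mm10 per the submitters' processing notes. Tool versions, annotation and strand setting were not given in the sources used here. Libraries came from a kit that does not mark strand. The authors' p-values and q-values were used only as deposited, with a sign from the deposited test score. Of 23356 features, 5 with status HIDATA were left out; 20 with status FAIL in some library were kept. Expected counts were rounded to whole numbers. One edgeR 4.0.16 quasi-likelihood fit (TMM, filterByExpr) of all 18 libraries in 6 groups of 3 gave each comparison; p-values were adjusted by Benjamini-Hochberg and called below 0.05. Alternatives used DESeq2 1.42.0 and limma 3.58.1 on log2(FPKM + 1), a log2 scale made here from the deposited FPKM. Fold changes there are on that scale and understate low genes.

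The fits were tested on simulated counts. The rule for named genes took both arrestins, up to 12 non-overlapping calls per direction at a mean log2 CPM of 1 or more, up to 4 calls of a list or else its member of smallest p, calls within 10 Mb of Arrb1 and the 6 smallest p-values of the difference between exposures. The 5 called genes outside it (Cdhr1, Megf6, Lbp, Sepn1 and Pnliprp1) were named after their values were seen. Counts of called genes include 1 gene that is not reported here. The comparison, the gene lists and the tests were chosen with earlier results of these data known. Copies were counted as 50-base words of GENCODE transcripts shared with another gene; positions come from the deposited table and promoter sequences from RefSeq (GRCm38.p6). A count of 0 was read against 3 fragments over a group, which covers counting error only. Depth was 16806806 to 25482323 fragments in the 6 libraries. Files hold no identical or near-identical replicate libraries (chi-square per gene 9.009 or more between replicates of a group).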

Additional observations from a re-analysis of the deposited data

How the results depend on the processing

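Of the 31 genes called in hypoxia, 10 kept the call under every alternative with a value, 16 kept it without each of the 6 libraries in turn, and 0 changed direction. Among the other named genes, without single libraries Arrb2 ranged from -0.01 (without knockout replicate 2) to 0.52, and Trim30a from -0.04 (without wild-type replicate 2, or knockout replicate 1) to 0.27; neither was called, and the cause was not tested. In hypoxia DESeq2 called 154 genes (97 higher, 57 lower, all 31 included), the 6 libraries alone 12 (10 of the 31; the cause was not tested), the tissue score as covariate 20 (19 of the 31), and leaving out 1 library 20 (without wild-type replicate 1) to 34 (without knockout replicate 0). Without knockout replicate 2 it was 21, of which 18 were among the 31. In normoxia these counts were 176, 109 (normoxic groups alone), 18 and 15 (without knockout replicate 0) to 30. For the difference between exposures, DESeq2 called 9, limma on log2(FPKM + 1) without a minimum 2 and the 4 groups alone 1. For the 2 lines in hypoxia the counts were 1085, 67, 341 and 243 (without labelled β-arrestin 2 -/- replicate 0), 260 (without replicate 2), 268 (without replicate 1) to 830. Calls within 10 Mb of Arrb1 numbered 12 with DESeq2, against 6. Named genes called in hypoxia by DESeq2 but not by edgeR included Hsp90b1, Hsp90ab1, Calr, Sgk1, Adrb3 and Trim12c. They also included Myh7, Hilpda, Col8a1, Ptx3, Trim30b and Lyve1, with a DESeq2 adjusted p of 0.0441 at most. Arrb2, Trim30a, Emcn, Ednrb, Nog, Tef, Rgs6, Muc5b, Clca3, Fgfr4, Sele and Hpgd were called in hypoxia by neither.

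The labels do not say whether replicate numbers pair the libraries, and the values do not settle it. Same-numbered hypoxic libraries deviated together with correlations of 0.464, -0.02 and 0.262, and unlike-numbered ones with -0.357 to 0.108. In normoxia the same-numbered values were 0.176, -0.0751 and 0.0055, and the unlike-numbered ones -0.177 to 0.135. With the replicate number as a block, 31 genes were called in hypoxia, 28 of them the same (not Hspb1, Mpped2 and Pdia6), 32 in normoxia, 0 in the difference and 591 between the lines. Depth limits low genes: at 0 fragments in 3 libraries the limit was 0.0494 CPM.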
